A study of Mus musculus with 25 samples.

Results

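Type I interferon-stimulated genes are the genes that cells switch on when interferon-alpha or interferon-beta reaches their surface. The receptor, built from Ifnar1 and Ifnar2, activates the kinases Jak1 and Tyk2, and these phosphorylate transcription factors such as Stat2. Stat2 joins Irf9 in a complex that binds interferon-stimulated response elements in promoters, and the induced genes restrict viruses, sense foreign nucleic acids and feed back on the pathway. Lung macrophages are known both as a source of type I interferon and as cells that respond to it. The 41 genes described here were chosen by name as textbook members of this set. All 41 were found among the 13482 genes of the deposited count table, and each had at least 2 reads in every library.

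The data were bulk polyA RNA-seq counts from 25 libraries of mouse lung macrophages taken from mixed bone marrow chimeras, animals whose blood system is rebuilt from a mixture of marrow of different genotypes, in the B16 melanoma model of lung tumors. In the WT:IL9RKO chimeras, B6/boyj recipients were given Il9r -/- and Boyj WT marrow, so that IL9RKO and WT macrophages developed in the same animals, and the study asked which changes depend on IL-9 signalling within the cell itself. The WT:ARG1CKO chimeras (WT:ARG1 in the naive titles) held WT cells and cells with the genotype label ARG1CKO. The sources used here give no Arg1 allele, Cre driver or age. Interstitial macrophages, which lie in the lung tissue and not in the air spaces, were sorted into CD11c+ and CD11c- cells (CD11c is the integrin encoded by Itgax). CD11c+ libraries numbered 3 labelled IL9RKO, 2 WT from the same chimeras, 2 ARG1CKO and 3 WT from the WT:ARG1CKO chimeras. CD11c- libraries numbered 3 labelled IL9RKO, 2 WT, 3 ARG1CKO and 3 WT in the same order. Naive chimeras gave 1 library of total macrophages for each genotype of each kind of chimera. The growth note of every library, the naive ones included, names the B16 tumor, and the treatment label was followed here. Nothing ties libraries to animals, so p-values measure the spread between libraries, which may be technical.

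Library totals ran from 32308968 to 56904167 counted reads, and 12113 to 13209 genes had a read in a library. Levels are given as CPM, reads per 1000000 counted reads, on library sizes scaled by the trimmed mean of M values. Itgax lay between 194 and 552 CPM in CD11c+ libraries and between 11.4 and 49.0 CPM in the CD11c- libraries, without overlap. Il9r had 4.19, 2.95 and 1.79 CPM in the CD11c+ and 12.5, 5.24 and 4.47 CPM in the CD11c- libraries labelled IL9RKO, and no read in any WT library of either kind of chimera. In the WT:IL9RKO chimeras the Il9r reads therefore ran against the genotype label. The libraries labelled IL9RKO are called by their label throughout, and every direction given for them rests on it. Among ARG1CKO libraries, CD11c+ library 1 had 61 Il9r reads (1.89 CPM) and CD11c+ library 2 had no read. CD11c- library 3 and the naive ARG1CKO library had 5 reads each. Arg1 had 483 and 567 CPM in CD11c+ ARG1CKO libraries, against 2912, 1096 and 1261 CPM in their WT libraries, and 2789, 2312 and 1711 CPM in the CD11c- ARG1CKO libraries, against 6229, 4591 and 3619.7 CPM. A pair of CD11c+ libraries stood apart. WT library 1 of the WT:ARG1CKO chimeras had the lowest Itgax of its group, with 194 CPM against 329.6 and 343 CPM in the other WT libraries of that group, the most Arg1 and the most of the monocyte gene Ly6c2 (346 CPM, against 109.6 and 122 CPM). CD11c+ library 3 labelled IL9RKO had the least Arg1, 102 CPM, and the melanoma pigment gene Pmel at 209 CPM.

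Interferon-stimulated response elements hold the letters GAAA repeated at a fixed spacing. The promoter sequences below show where these letters stand in 6 members picked from those that hold them. The sequences are RefSeq promoters of build GRCm38.p6, 250 bases before to 50 bases after the annotated start, printed 5′ to 3′ on the strand of the gene. Capitals mark the core GAAANNGAAA on either strand, where overlapping matches were each counted. Isg15 (chr4:156200769-156201068, minus strand) carried 3 overlapping matches, Ifit1 (chr19:34640639-34640938, plus strand), Ifit3 (chr19:34583279-34583578, plus strand), Oas1a (chr5:120907476-120907775, minus strand) and Ifitm3 (chr7:141010695-141010994, minus strand) carried 2 each, and Rsad2 (chr12:26456403-26456702, minus strand) carried 1.
Isg15: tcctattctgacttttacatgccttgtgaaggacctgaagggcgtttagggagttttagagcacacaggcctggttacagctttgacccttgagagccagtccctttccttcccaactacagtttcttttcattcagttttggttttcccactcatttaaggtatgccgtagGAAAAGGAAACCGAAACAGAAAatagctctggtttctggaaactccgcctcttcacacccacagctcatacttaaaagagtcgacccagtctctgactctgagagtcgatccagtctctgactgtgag
Ifit1: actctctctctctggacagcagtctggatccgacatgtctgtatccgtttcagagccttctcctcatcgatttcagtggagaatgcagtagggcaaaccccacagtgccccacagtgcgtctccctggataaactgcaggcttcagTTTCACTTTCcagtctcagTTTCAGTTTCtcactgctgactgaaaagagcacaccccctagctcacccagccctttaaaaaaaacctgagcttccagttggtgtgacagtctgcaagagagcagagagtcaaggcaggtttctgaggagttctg
Ifit3: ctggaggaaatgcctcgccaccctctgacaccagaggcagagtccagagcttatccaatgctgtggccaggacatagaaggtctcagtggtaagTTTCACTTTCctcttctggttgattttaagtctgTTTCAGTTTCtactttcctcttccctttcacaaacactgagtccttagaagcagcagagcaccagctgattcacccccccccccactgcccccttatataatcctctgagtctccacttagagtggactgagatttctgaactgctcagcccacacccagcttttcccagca
Rsad2: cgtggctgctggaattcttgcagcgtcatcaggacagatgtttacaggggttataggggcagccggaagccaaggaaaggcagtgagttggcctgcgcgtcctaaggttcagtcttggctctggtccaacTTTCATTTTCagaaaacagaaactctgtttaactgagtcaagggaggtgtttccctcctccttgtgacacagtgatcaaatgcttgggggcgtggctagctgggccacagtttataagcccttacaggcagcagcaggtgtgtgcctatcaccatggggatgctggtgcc
Oas1a: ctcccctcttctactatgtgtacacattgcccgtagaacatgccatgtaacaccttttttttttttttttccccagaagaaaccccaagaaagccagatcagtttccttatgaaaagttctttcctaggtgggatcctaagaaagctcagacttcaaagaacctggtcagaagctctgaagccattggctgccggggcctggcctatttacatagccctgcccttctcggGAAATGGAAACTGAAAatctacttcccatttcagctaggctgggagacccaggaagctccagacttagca
Ifitm3: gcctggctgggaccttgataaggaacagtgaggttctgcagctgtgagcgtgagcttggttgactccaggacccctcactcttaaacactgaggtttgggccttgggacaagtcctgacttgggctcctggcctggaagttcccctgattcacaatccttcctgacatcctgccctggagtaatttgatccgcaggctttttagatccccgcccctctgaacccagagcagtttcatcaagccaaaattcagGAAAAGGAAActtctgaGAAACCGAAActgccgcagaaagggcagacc

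In Isg15 the run of matches began 78 bases before the start, and in Rsad2 the match began 120 bases before it. The pairs in Ifit1 began 104 and 85 bases before the start, those in Ifit3 156 and 122 bases before it, and the overlapping pair in Oas1a began at 20 bases before it. Ifitm3 carried both of its matches after the start, at bases 3 and 20 counted from the start as base 1. RefSeq promoters were matched for 30 of the 41 members, of which 13 (43.3%) held the core in at least 1 promoter, against 1079 of all 27025 genes in the promoter table (3.99%). Among member promoters 14 of 38 held it, against 1131 of 32851 promoters of the same length (3.44%). Bst2, Ddx58, Eif2ak2, Ifih1, Oas3, Stat2 and Trim30a were the other members with a match. The 17 members without a match included Irf7, Irf9, Oasl1, Oasl2, Sp100, Xaf1, Ifit2 and Adar. The rest were Cmpk2, Dtx3l, Herc6, Ifi35, Ifi44, Isg20, Lgals3bp, Samd9l and Trim25. A match is a description of letters only.

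Levels differed widely between members. Per kilobase of annotated exon, Ifitm3, which blocks the entry of enveloped viruses, had the highest mean level in every WT population, with 2204 CPM per kilobase in CD11c+, 5172 in CD11c- and 382 in naive WT libraries. Ifi27l2a, a small membrane protein of the IFI27 family, was next in both tumor populations with 1617 CPM per kilobase in CD11c+ and 3098 in CD11c- WT libraries. In CD11c- WT libraries Irf7, the transcription factor that amplifies interferon production, followed at 521 CPM per kilobase, ahead of the secreted glycoprotein Lgals3bp at 503, Bst2 (tetherin) at 383 and Isg15 at 282. Mx2, of the Mx GTPase family and annotated as a polymorphic pseudogene, was lowest there at 3.26 CPM per kilobase, below Ifi44 at 4.93 and Oas2 at 7.84. Members sit on 15 chromosomes of mm10, with 6 on chromosome 16, 5 on chromosome 5 and 5 on chromosome 11. Ifit2 (chr19:34550694-34576419), Ifit3 (chr19:34583531-34588731) and Ifit1 (chr19:34640871-34650009) are neighbours, and Rsad2 (chr12:26442746-26456452) lies beside Cmpk2 (chr12:26469204-26479837). Parp9 (chr16:35938470-35972605) and Dtx3l (chr16:35926511-35939151) overlap on opposite strands, and whether counting used the strand was not given. Ifit3, Oas1a and Trim30a have near-identical copies in the table (Ifit3b, Oas1g and Trim30d), so their counts could be split between copies.

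A score for each library, the mean log2 CPM of the 41 genes, gives the overall picture without a test. It lay between 4.97 and 6.41 in the 10 CD11c+ libraries, between 6.73 and 7.31 in the 11 CD11c- libraries and between 4.60 and 5.50 in the 4 naive libraries. No CD11c+ library reached the lowest CD11c- library. CD11c+ libraries labelled IL9RKO scored 5.78, 5.50 and 4.97, against 5.94 and 5.52 in their WT libraries, and CD11c+ ARG1CKO libraries scored 5.81 and 5.90, against 6.41, 5.71 and 6.02 in theirs. CD11c- libraries labelled IL9RKO scored 7.11, 6.82 and 6.73, against 7.31 and 6.89 in WT libraries, and CD11c- ARG1CKO libraries scored 7.21, 7.03 and 6.85, against 7.29, 7.05 and 6.87. Naive libraries scored 5.50 for the one labelled IL9RKO, against 4.96 for its WT partner, and 4.60 for ARG1CKO, against 4.80 for its WT partner. The CD11c+ score minus the CD11c- score was -1.20 in WT (SD between replicates 0.29), -1.47 in libraries labelled IL9RKO (0.32) and -1.18 in ARG1CKO libraries (0.14). The score differences between genotypes were smaller than the SD between replicates, which leaves the replicate numbers aside, in all 4 pairs of groups: -0.31 (SD 0.36) for IL9RKO minus WT in CD11c+, -0.22 (0.25) in CD11c-, -0.19 (0.25) for ARG1CKO minus WT in CD11c+ and -0.04 (0.20) in CD11c-. Leaving out 1 library moved these from -0.52 (without WT 2) to -0.09 (without IL9RKO 3) for IL9RKO in CD11c+ and from -0.43 (without WT 2) to -0.004 (without WT 1) in CD11c-. For ARG1CKO they moved from -0.36 (without WT 2) to -0.01 (without WT 1) in CD11c+, and in CD11c- from -0.14 (without WT 3) to 0.07 (without WT 1), where the sign turned; it also turned without ARG1CKO 3 (0.05). Between libraries of the same number the IL9RKO minus WT difference was -0.15 and -0.02 in CD11c+ and -0.21 and -0.07 in CD11c- cells. The ARG1CKO minus WT difference by number was -0.07, -0.02 and -0.02 in CD11c- cells, and -0.60 and 0.19 in CD11c+ cells, where same-numbered libraries did not deviate together. These 7 differences of the IL9RKO label and of CD11c- ARG1CKO were all below 0, and no test was made of them.

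**Figure D1:**
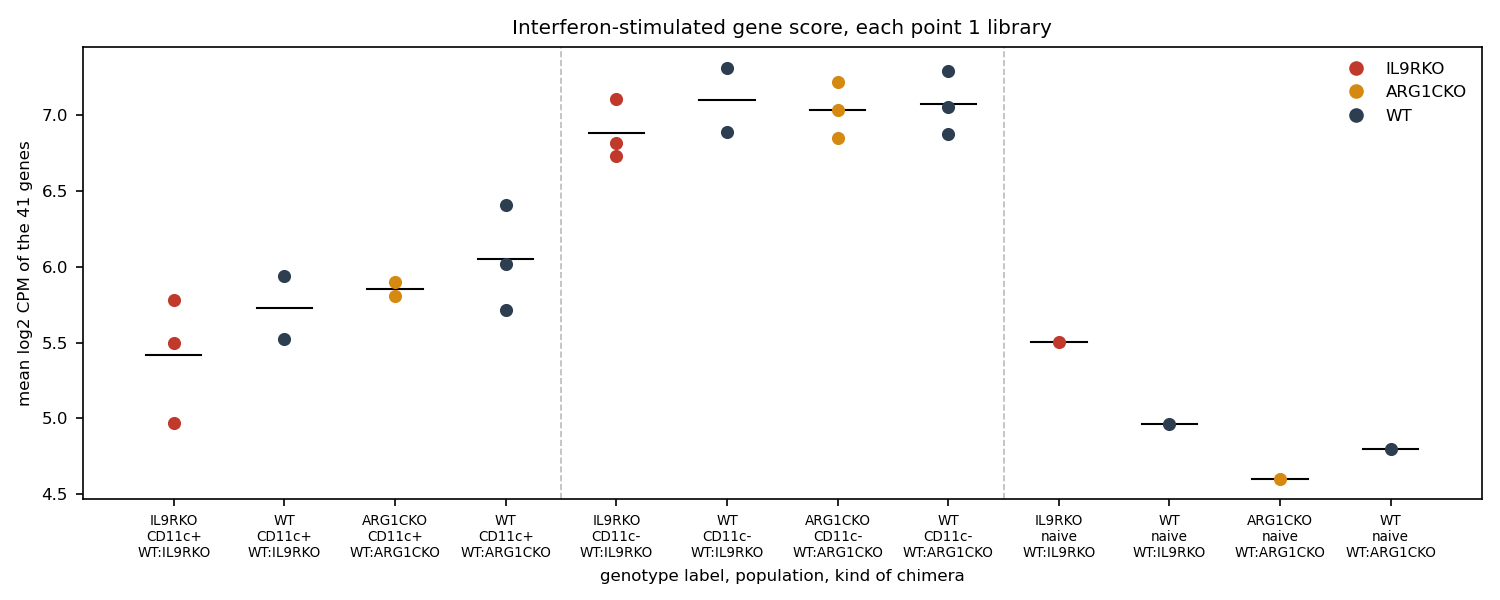
Mean log2 CPM of the 41 interferon-stimulated genes (vertical axis) in each of 25 libraries (points), by genotype label, population and kind of chimera; black lines are group means. All 11 CD11c- libraries lie between 6.73 and 7.31, above the 10 CD11c+ libraries (4.97 to 6.41) and the 4 naive libraries (4.60 to 5.50).

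Within the CD11c- groups, library 1 had the highest score in all 4 groups. It held the highest level of 28 of the 41 members among libraries labelled IL9RKO, of 27 in WT libraries of the same chimeras, of 33 among ARG1CKO libraries and of 28 in WT libraries of those chimeras. In the WT:ARG1CKO CD11c+ WT group, 27 members were highest in library 1 and 8 were lowest in it. Irf7 had 1254, 303 and 331 CPM in that group, Ifitm3 3434, 1104 and 1364 CPM and Ifi27l2a 2144, 552 and 517 CPM, with library 1 far above the other libraries for each gene. Ifit2, which like its family binds foreign RNA and blocks translation, went the other way in that library, with 27.1, 47.6 and 47.6 CPM. Among CD11c+ libraries labelled IL9RKO, library 3 was lowest for 26 of the 41 members.

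**Figure D2:**
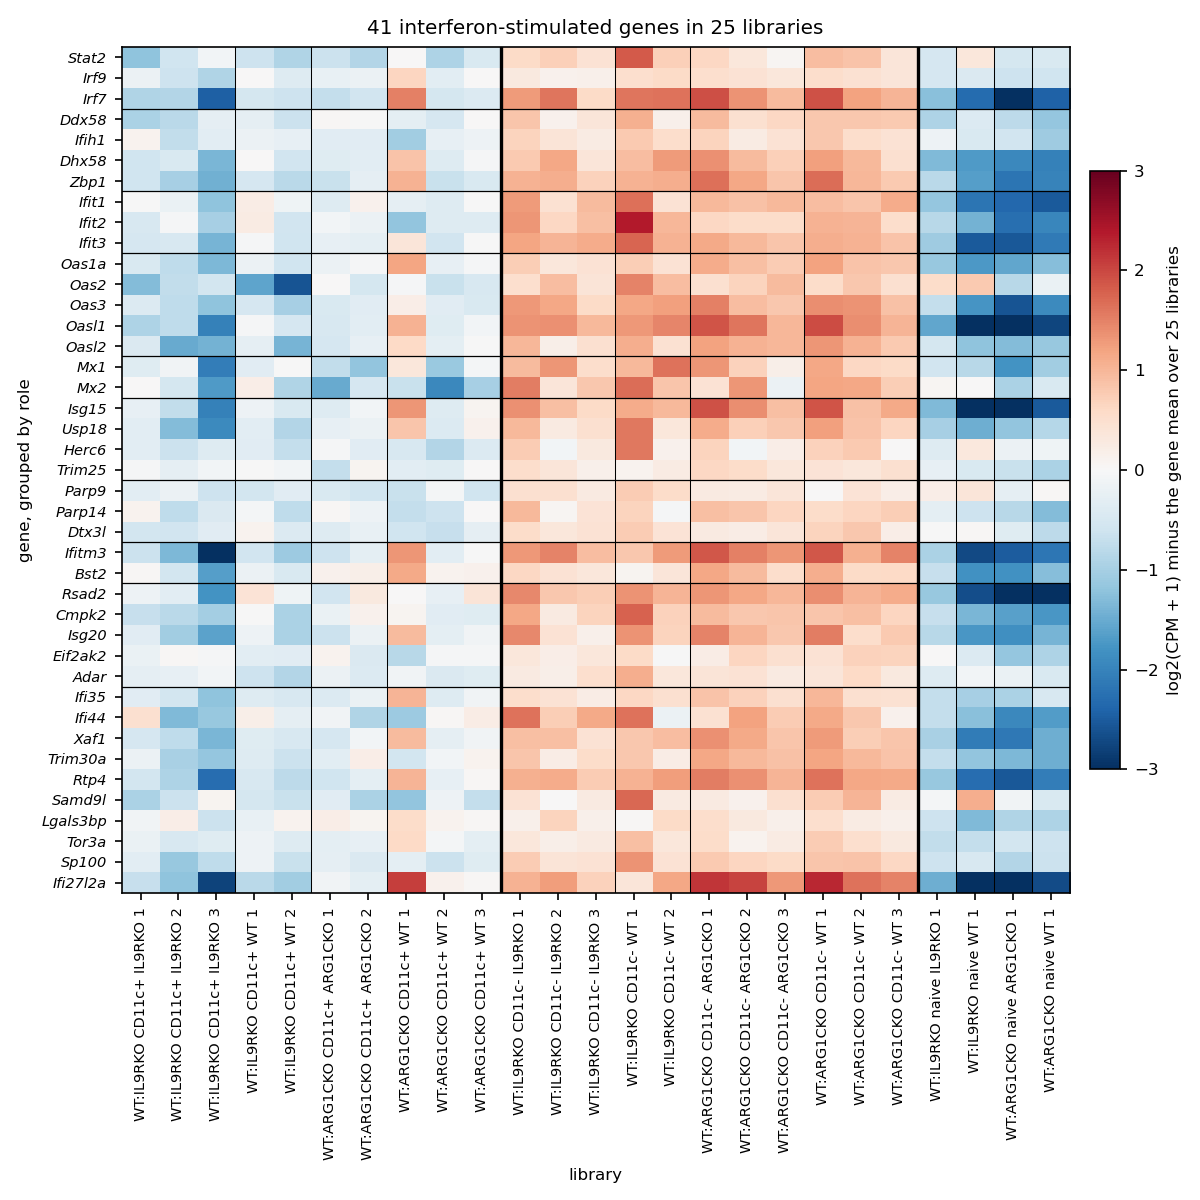
Each cell shows log2(CPM + 1) of 1 gene in 1 library minus the mean of that gene over 25 libraries, with genes grouped by role (thin horizontal lines) and libraries by group (thick vertical lines part CD11c+, CD11c- and naive). The CD11c- block is above the gene mean for most genes, and in the CD11c+ block WT library 1 of the WT:ARG1CKO chimeras stands out for Irf7 (1254 CPM) and Ifi27l2a (2144 CPM).

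CD11c+ interstitial macrophages of tumor-bearing lungs carried less interferon-stimulated mRNA than CD11c- cells. In WT cells 36 of the 41 members were lower in CD11c+ libraries at an adjusted p under 0.05 and none was higher (edgeR's quasi-likelihood test, Benjamini-Hochberg adjustment over all 13434 genes tested). Of all genes tested, 6.1% were lower by the same rule. The median log2 fold change of the members, CD11c+ over CD11c-, was -1.17, against 0.00 over all genes, and 29 members were more than 2-fold lower. Values ran from -2.50 for Mx2 to -0.23 for Lgals3bp, and Irf9, Ifi35, Ifi44, Bst2 and Lgals3bp did not pass the test. For 22 members the WT libraries of the 2 populations did not overlap, against 3.83% of all genes. For another 15 members the overlap came from library 1 of the WT:ARG1CKO CD11c+ WT group alone. Leaving that library out together with CD11c+ library 3 labelled IL9RKO, a choice made after seeing the data, gave 38 members lower, while leaving out WT library 2 of the WT:IL9RKO CD11c+ group gave 22. The libraries are bulk, so fewer cells of a type and less RNA per cell cannot be told apart.

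Among the 3 transcription factors, Stat2 and Irf7 were lower in CD11c+ WT cells and Irf9 did not pass. Stat2, which carries the activation domain of the interferon complex, had 24.7, 20.1, 38.7, 19.8 and 28.1 CPM in CD11c+ WT libraries, against 142, 64.2, 74.8, 70.6 and 50.02 CPM in the CD11c- WT libraries. All 5 CD11c+ values lay below every CD11c- value, and the log2 fold change was -1.70 ± 0.25 (SE, adjusted p = 1.8e-04). Irf7 had 302, 282, 1254, 303 and 331 CPM in CD11c+ WT libraries, against 1329, 1352, 1655, 1014 and 882 CPM in the CD11c- WT libraries. Here 4 CD11c+ libraries were far below the CD11c- range and library 1 of the WT:ARG1CKO WT group lay inside it, and the log2 fold change was -1.56 ± 0.38 (SE, adjusted p = 0.0097). Irf9, the DNA-binding partner in the complex, had 83.4, 63.1, 128, 66.2 and 82.9 CPM in CD11c+ WT libraries, against 116, 122, 118, 113 and 105 CPM in the CD11c- WT libraries, and its log2 fold change of -0.50 ± 0.16 (SE) did not pass the test (adjusted p = 0.051). Library 1 of the WT:ARG1CKO CD11c+ WT group was above every CD11c- value of Irf9 and the other 4 CD11c+ libraries were below all of them; without library 1 the adjusted p was 0.0051. Without WT library 2 of the WT:IL9RKO CD11c+ group the adjusted p of Irf7 was 0.059.

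All 4 nucleic acid sensors were lower in CD11c+ WT cells. Ddx58 encodes RIG-I, a sensor of viral RNA ends, and had 41.4, 31.4, 40.7, 35.01 and 49.8 CPM in CD11c+ WT libraries, against 105, 55.1, 87.2, 87.3 and 86.01 CPM in the CD11c- WT libraries. The groups did not overlap, and the log2 fold change was -1.10 ± 0.19 (SE, adjusted p = 8.6e-04). Zbp1, a sensor of left-handed nucleic acids that can trigger necroptosis, had 91.5, 73.7, 269, 81.7 and 95.00 CPM in CD11c+ WT libraries, against 272, 278, 419, 262 and 225 CPM in the CD11c- WT libraries. It changed by -1.39 ± 0.29 (SE, adjusted p = 0.0032) on the log2 scale, with library 1 of the WT:ARG1CKO CD11c+ WT group inside the CD11c- range. Ifih1 (MDA5, a sensor of long double-stranded RNA) and Dhx58 (LGP2, a regulator of both RNA sensors) changed by -0.98 ± 0.19 and -1.05 ± 0.25 on the log2 scale (SE).

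The IFIT, OAS and Mx families, whose products act on viral RNA or on virus particles, were lower for each of their 10 members. Ifit3 had 78.6, 53.4, 105, 54.3 and 79.8 CPM in CD11c+ WT libraries, against 273, 168, 172, 167 and 147 CPM in the CD11c- WT libraries, without overlap, and a log2 fold change of -1.39 ± 0.20 (SE, adjusted p = 1.6e-04). Ifit1, which binds RNA that lacks the host cap methylation, had 65.3, 50.7, 46.1, 42.2 and 55.7 CPM in CD11c+ WT libraries, against 177, 75.2, 106, 100.2 and 123 CPM in the CD11c- WT libraries, again without overlap. The change was -1.17 ± 0.24 (SE, adjusted p = 0.0029) on the log2 scale. Ifit2 had 74.6, 41.9, 27.1, 47.6 and 47.6 CPM in CD11c+ WT libraries, against 332, 126, 131, 127 and 91.2 CPM in the CD11c- WT libraries, with WT library 1 of the WT:IL9RKO CD11c- group highest, and a log2 fold change of -1.75 ± 0.26 (SE, adjusted p = 1.9e-04).

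OAS enzymes make the short oligoadenylates that activate RNase L. Oas2 had the smallest adjusted p of the members, with 4.75, 1.87, 15.7, 9.84 and 11.2 CPM in CD11c+ WT libraries, against 47.5, 31.4, 24.2, 29.2 and 22.99 CPM in the CD11c- WT libraries, and a log2 fold change of -2.32 ± 0.26 (SE, adjusted p = 1.5e-05). The 2 lowest Oas2 values were the CD11c+ WT libraries of the WT:IL9RKO chimeras. Oas3 had 32.8, 23.2, 54.3, 37.5 and 34.1 CPM in CD11c+ WT libraries, against 107, 112, 126, 121 and 87.8 CPM in the CD11c- WT libraries, without overlap, and a log2 fold change of -1.70 ± 0.21 (SE, adjusted p = 2.7e-05). Oas1a, Oasl1 and Oasl2 changed by -0.76, -1.43 and -1.24. Mx1, a dynamin-like GTPase, had 15.3, 19.6, 25.02, 8.50 and 18.98 CPM in CD11c+ WT libraries, against 39.9, 63.5, 45.6, 30.8 and 29.6 CPM in the CD11c- WT libraries, without overlap. It changed by -1.30 ± 0.36 (SE, adjusted p = 0.022), and leaving out any 1 of 4 libraries took it past the threshold (adjusted p 0.056 to 0.098): WT:IL9RKO CD11c+ WT 1 and 2, WT:IL9RKO CD11c- WT 2 and WT:ARG1CKO CD11c- WT 1. Mx2 had 3.57, 1.15, 1.53, 0.0486 and 0.996 CPM in CD11c+ WT libraries, against 11.7, 6.17, 8.02, 7.95 and 5.69 CPM in the CD11c- WT libraries, the lowest levels of all members, and a log2 fold change of -2.50 ± 0.71 (SE, adjusted p = 0.027). It lost its call without WT:IL9RKO CD11c+ WT 1 or 2 or WT:IL9RKO CD11c- WT 1 (adjusted p 0.053 to 0.15).

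ISG15 is a ubiquitin-like tag, and its own gene, its protease and its ligases were lower in CD11c+ WT cells. Isg15 had 80.8, 64.8, 224, 67.9 and 94.3 CPM in CD11c+ WT libraries, against 194, 177, 332, 165 and 196 CPM in the CD11c- WT libraries. The log2 fold change was -1.11 ± 0.34 (SE, adjusted p = 0.037), and library 1 of the WT:ARG1CKO CD11c+ WT group lay inside the CD11c- range. The call on Isg15 was lost when any 1 of 7 of the 10 libraries was left out (adjusted p 0.062 to 0.15), the exceptions being WT:ARG1CKO CD11c+ WT 1 and WT:ARG1CKO CD11c- WT 2 and 3. Usp18, which removes the tag and also dampens the interferon receptor, had 70.7, 47.7, 159, 66.2 and 97.2 CPM in CD11c+ WT libraries, against 268, 112, 210.4, 162 and 139 CPM in the CD11c- WT libraries. Its log2 fold change was -1.18 ± 0.30 (SE, adjusted p = 0.013), and the adjusted p was above the threshold without WT:IL9RKO CD11c+ WT 2 or WT:IL9RKO CD11c- WT 1 (0.086 and 0.12). The ligases Herc6 and Trim25 changed by -1.39 and -0.43. Dtx3l, a ubiquitin ligase that pairs with Parp9, had 55.01, 37.8, 33.4, 31.3 and 42.3 CPM in CD11c+ WT libraries, against 86.4, 67.9, 80.8, 89.1 and 58.8 CPM in the CD11c- WT libraries. These groups did not overlap, and the log2 fold change was -0.92 ± 0.14 (SE, adjusted p = 3.4e-04), close to those of Parp9 (-0.89) and Parp14 (-0.91).

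The membrane factors parted. Ifitm3 had 926, 643, 3434, 1104 and 1364 CPM in CD11c+ WT libraries, against 2417, 3347, 5008, 2897 and 3863 CPM in the CD11c- WT libraries, and library 1 of the WT:ARG1CKO group alone lay inside the CD11c- range. Its log2 fold change was -1.45 ± 0.35 (SE, adjusted p = 0.011), and 0.074 was the adjusted p without WT:IL9RKO CD11c+ WT 2. Bst2, which tethers budding virus to the cell surface, had 178, 147, 447, 219 and 220.2 CPM in CD11c+ WT libraries, against 213, 258, 433, 304 and 307 CPM in the CD11c- WT libraries. The Bst2 groups overlapped, with 3 CD11c+ libraries above the lowest CD11c- library, and its log2 fold change of -0.40 ± 0.25 (SE) did not pass the test (adjusted p = 0.35). No test of the difference between Ifitm3 and Bst2 was run.

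All 5 enzymes of nucleotides and RNA were lower in CD11c+ WT cells. Rsad2 (viperin), which makes a nucleotide that stops viral RNA synthesis, had 144, 99.1, 109, 91.5 and 141 CPM in CD11c+ WT libraries, against 277, 219.6, 285, 218 and 236 CPM in the CD11c- WT libraries. The groups did not overlap, and the log2 fold change was -1.08 ± 0.26 (SE, adjusted p = 0.0092), with an adjusted p of 0.071 without WT:IL9RKO CD11c+ WT 2. Adar, which edits adenosine to inosine in double-stranded RNA, had 38.9, 32.4, 56.4, 44.3 and 47.1 CPM in CD11c+ WT libraries, against 130.2, 77.5, 78.7, 92.5 and 75.1 CPM in the CD11c- WT libraries. Its log2 fold change was -1.15 ± 0.14 (SE, adjusted p = 3.3e-05), and its groups did not overlap. Cmpk2, Isg20 and Eif2ak2 changed by -1.39, -1.18 and -0.79.

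Of the other 10 induced genes, 7 were lower. Sp100, a component of nuclear bodies, had 100.2, 69.9, 90.8, 71.1 and 85.7 CPM in CD11c+ WT libraries, against 286, 149, 199, 203 and 171 CPM in the CD11c- WT libraries, without overlap and with a log2 fold change of -1.29 ± 0.18 (SE, adjusted p = 1.3e-04). Ifi27l2a had 289, 242, 2144, 552 and 517 CPM in CD11c+ WT libraries, against 644, 1134, 2411, 1565 and 1418 CPM in the CD11c- WT libraries. The log2 fold change was -1.26 ± 0.38 (SE, adjusted p = 0.039), and it lost its call when any 1 of 8 libraries was left out (adjusted p 0.055 to 0.15), the exceptions being WT:ARG1CKO CD11c+ WT 1 and WT:ARG1CKO CD11c- WT 3. Lgals3bp had 809.6, 1014, 1385, 1008 and 966 CPM in CD11c+ WT libraries, against 968, 1405, 1324, 1113 and 1049.9 CPM in the CD11c- WT libraries, with overlapping groups and the log2 fold change nearest to 0, -0.23 ± 0.18 (SE, adjusted p = 0.46). Rtp4, Samd9l, Trim30a, Xaf1 and Tor3a changed by -1.39, -1.60, -1.12, -1.01 and -0.67.

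**Figure D3:**
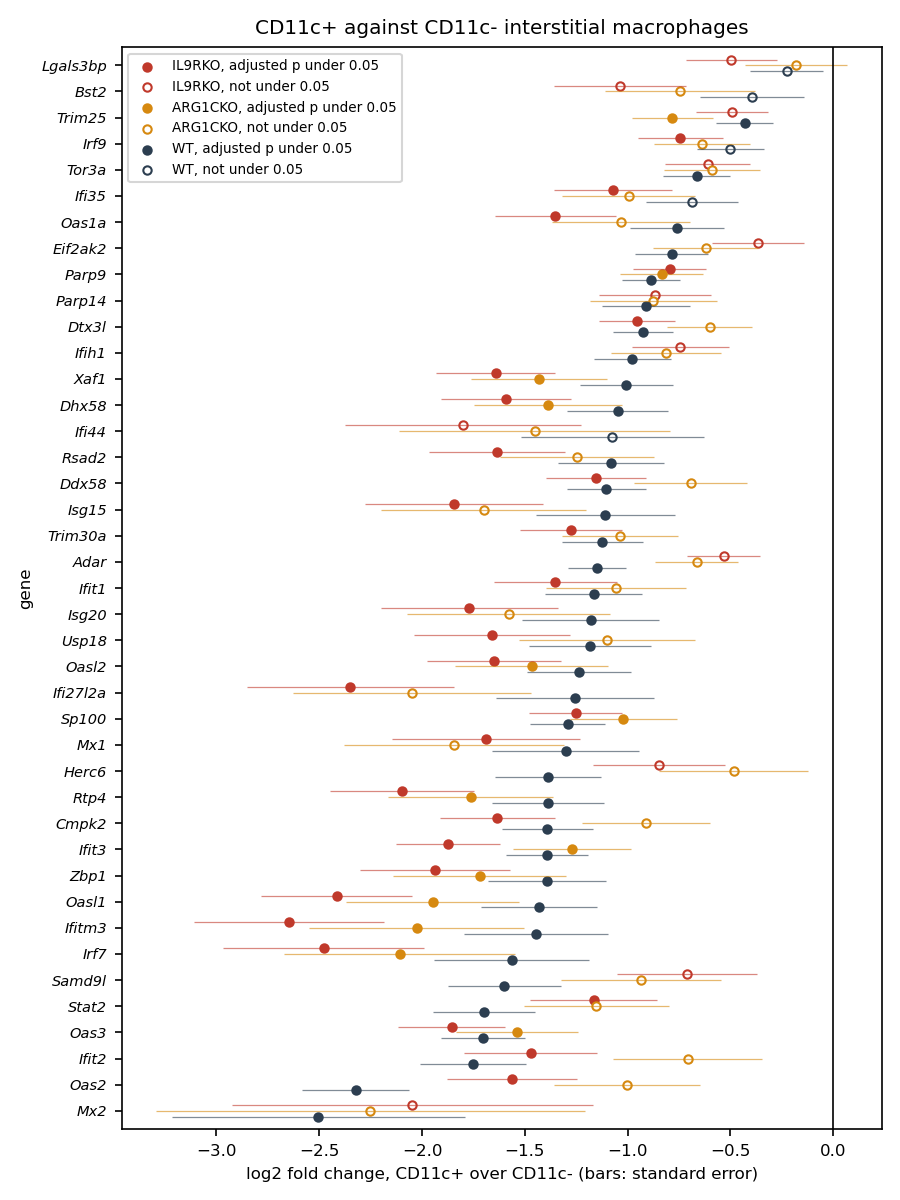
Log2 fold change of CD11c+ over CD11c- libraries (horizontal axis) for the 41 genes, ordered by the WT value, in libraries labelled IL9RKO, in ARG1CKO and in WT libraries; bars are standard errors and filled points have an adjusted p under 0.05. All points lie left of 0, with 29, 13 and 36 filled in IL9RKO, ARG1CKO and WT.

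The same direction held in the knockout libraries. In libraries labelled IL9RKO 29 of the 41 members were lower in CD11c+ cells, against 3.14% of all genes, with a median log2 fold change of -1.47. For 38 members these libraries did not overlap, against 11.1% of all genes. Oasl1, a regulator of Irf7 translation in mice, had 40.4, 44.96 and 18.2 CPM in CD11c+, against 197, 200.5 and 152 CPM in the CD11c- libraries labelled IL9RKO, a log2 fold change of -2.41 ± 0.37 (SE, adjusted p = 4.8e-04). Ifit3 had 56.8, 57.5 and 30.2 CPM in CD11c+, against 186, 166 and 176 CPM in the CD11c- libraries labelled IL9RKO, and its log2 fold change of -1.87 ± 0.25 (SE, adjusted p = 1.9e-04) had the smallest adjusted p. Rtp4, an interferon-induced zinc finger protein, had 84.5, 64.7 and 24.8 CPM in CD11c+, against 262, 271 and 209 CPM in the CD11c- libraries labelled IL9RKO, a change of -2.10 ± 0.35 (SE, adjusted p = 0.0010). In each of these 3 genes library 3 was the lowest CD11c+ library. Ifitm3, with 876, 545 and 172 CPM in CD11c+, against 3398, 3892 and 2634 CPM in the CD11c- libraries labelled IL9RKO, had the largest fall, -2.65 ± 0.46 (SE, adjusted p = 0.0014). Oas3, Cmpk2, Xaf1 and Sp100 changed by -1.85, -1.63, -1.64 and -1.25, and Eif2ak2 had the change nearest to 0, -0.37. Same-numbered CD11c+ and CD11c- libraries deviated together in this genotype, and a fit with the replicate number as a block gave 34 members lower. Fitted on these 6 libraries alone, 17 members were lower. Beside this, 10 of 15 alveolar macrophage markers were higher in the CD11c+ libraries labelled IL9RKO. Their sums were 2091 to 11760.0 CPM, against 319 to 507 CPM in the CD11c- libraries. Of 12 monocyte markers 6 were lower and 1 higher (sums of 4893 to 12452 CPM, against 4742 to 6509.8 CPM), and 3 of 14 interstitial macrophage markers were lower. Chil3 stands in both the alveolar macrophage and the monocyte list, so the sums of these lists share it. The monocyte marker Ly6c2 had 120, 95.99 and 18.1 CPM in CD11c+, against 888, 867 and 378 CPM in the CD11c- libraries labelled IL9RKO.

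In ARG1CKO libraries 13 members were lower in CD11c+ cells, against 1.25% of all genes, with a median log2 fold change of -1.04. For 39 members these libraries did not overlap, against 19.3% of all genes. Oas3 had 33.97 and 37.3 CPM in CD11c+, against 136, 90.8 and 83.96 CPM in the CD11c- ARG1CKO libraries, and its log2 fold change of -1.54 ± 0.30 (SE, adjusted p = 0.0074) had the smallest adjusted p. Oasl1 had 55.4 and 62.1 CPM in CD11c+, against 288, 237 and 156 CPM in the CD11c- ARG1CKO libraries, a change of -1.95 ± 0.42 (SE, adjusted p = 0.015). Ifit3, Rtp4, Xaf1, Parp9, Zbp1 and Trim25 changed by -1.27, -1.76, -1.43, -0.83, -1.72 and -0.78, and the estimates of all members lay between -2.25 for Mx2 and -0.18 for Lgals3bp. This count rested on few libraries: it was 1, 2 and 10 without CD11c- libraries 1, 2 and 3, and 0 and 1 without CD11c+ libraries 1 and 2. It was 31 with these 5 libraries fitted alone. Here 4 of 15 alveolar macrophage markers were higher in CD11c+ ARG1CKO libraries (sums of 1673 to 2330.3 CPM, against 373 to 552 CPM in the CD11c- libraries), and 2 of 12 monocyte markers and 1 of 14 interstitial macrophage markers were lower. The part of these cells in the knockout counts was not tested. The members lower in WT, in libraries labelled IL9RKO and in ARG1CKO libraries were 12: Dhx58, Ifit3, Ifitm3, Irf7, Oas3, Oasl1, Oasl2, Parp9, Rtp4, Sp100, Xaf1 and Zbp1. Bst2, Ifi44 and Lgals3bp passed in no genotype. The fits share 1 estimate of the spread, and whether the genotypes differ in this contrast is given with the knockout results.

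Genes of interferon signalling and of sensing that are no members were listed apart. Of 8 receptor, kinase and regulator genes 2 were lower in CD11c+ WT cells and none was higher, with a median log2 fold change of -0.34. The receptor chain gene Ifnar1 averaged 150.4 CPM in CD11c+, against 260.4 CPM in the CD11c- WT libraries, a log2 fold change of -0.85 ± 0.15 (SE, adjusted p = 0.0012). Stat3 changed by -0.56 ± 0.14 (SE, adjusted p = 0.012). A sensing list held receptors and other enzymes beside adaptors and kinases. Of its 17 genes tested 5 were lower: Samhd1 (-0.99), Ikbke (-1.15), Tlr4 (-1.03), Myd88 (-0.69) and Tbk1 (-0.78). Of 21 interferon ligand genes looked for, Ifnb1 alone was in the count table, at 0.505 to 5.26 CPM, and it was not called. The 20 tested genes of an interferon-gamma list split. Cxcl9 (2.02), Cd74 (1.45) and Ciita (1.85), genes of T cell recruitment and antigen presentation, were higher in CD11c+ cells, and Irgm1 (-0.81), Nos2 (-1.57) and Igtp (-0.81) were lower.

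Markers of other cell types also differed between the sorted populations. Of 15 alveolar macrophage markers 9 were higher in CD11c+ WT cells, with a summed level of 603 to 7248 CPM, against 329 to 544 CPM in the CD11c- WT cells. Of 9 conventional dendritic cell markers 2 were higher, the sum being 135 to 259 CPM in the CD11c+ and 12.7 to 63.04 CPM in the CD11c- libraries. Of 12 monocyte markers 6 were lower and 1 was higher, the sum being 2618 to 9068 CPM in the CD11c+ and 5119 to 8497 CPM in the CD11c- libraries, and Ly6c2 lay between 110 and 346 CPM in CD11c+, against 351 to 833 CPM in the CD11c- WT libraries. Plasmacytoid dendritic cell markers, from the cells known for the highest interferon output, summed to 61.2 to 82.9 CPM in the CD11c+ and 72.3 to 101 CPM in the CD11c- libraries, with 1 of 7 lower. The interstitial macrophage markers summed to 32048 to 47218 CPM in the CD11c+ and 26488 to 35122 CPM in the CD11c- libraries, and all 14 had reads in both; 2 of them were lower in CD11c+ cells, Folr2 (-1.99) and Lyve1 (-4.54), and none was higher. The part of these cells in the member differences was not tested.

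CD11c- macrophages of tumor-bearing lungs carried far more interferon-stimulated mRNA than total macrophages of naive lungs. In WT cells CD11c+ macrophages carried more of a smaller number of these genes. In CD11c+ knockout cells 1 member passed, against 3.02% of all genes tested there. Tumor and sorted population cannot be told apart here, because the naive cells were total macrophages. Itgax had 419.5 and 388 CPM in the naive WT libraries and 432 and 554 CPM in the naive knockout libraries. These values lay within or above the CD11c+ range (194 to 552 CPM) and far above the CD11c- range (11.4 to 49.0 CPM). By Itgax the naive libraries were therefore closer to CD11c+ cells, and the part of this in the member changes was not tested. In WT cells 36 of the 41 members were higher in CD11c- tumor libraries than in naive libraries, against 13% of the 13170 genes tested, with a median log2 fold change of 2.14 (all genes -0.03). In CD11c+ tumor libraries 23 members were higher, against 13.7% of genes, with a median of 1.12 (all genes -0.02). The libraries did not overlap for 37 members in CD11c- (17.4% of all genes) and for 24 members in CD11c+ (19.4%). Both comparisons share the same 2 naive WT libraries. Without the naive WT library of the WT:ARG1CKO chimeras 13 members were higher in CD11c+.

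The tumor values of the genes named before are compared here with the naive WT library of the WT:IL9RKO and then of the WT:ARG1CKO chimeras. Rsad2 had 16.1 and 10.4 CPM in naive WT libraries, under every tumor value, and its log2 fold change over naive was 3.20 ± 0.27 (SE, adjusted p = 1.1e-05) in CD11c+ and 4.28 ± 0.28 (SE, adjusted p = 1.0e-06) in CD11c- cells, the smallest adjusted p in both. Oasl1 had 75.7, 54.1, 160.0, 60.2 and 72.99 CPM in the CD11c+ and 194, 215, 304, 204 and 159 CPM in the CD11c- tumor WT libraries, against 6.94 and 10.6 CPM in naive WT libraries. Its changes of 3.26 ± 0.40 (SE, adjusted p = 1.7e-04) and 4.64 ± 0.44 (SE, adjusted p = 7.3e-06) were the largest of the members in both populations. Isg15 had 10.000 and 14.7 CPM in naive WT libraries, below all tumor libraries, and rose by 3.05 ± 0.44 (SE, adjusted p = 4.6e-04) in CD11c+ and by 4.10 ± 0.47 (SE, adjusted p = 3.4e-05) in CD11c- cells. Ifit1 (11.4 and 8.92 CPM in naive WT libraries) rose by 2.41 in CD11c+ and 3.57 in CD11c- cells, and Ifit3 (13.2 and 17.9 CPM) by 2.29 and 3.60. For both IFIT genes every tumor library was above both naive libraries. Rtp4 had 88.1, 71.6, 252, 105 and 126 CPM in the CD11c+ and 257, 298, 386, 277 and 273 CPM in the CD11c- tumor WT libraries, against 24.6 and 28.8 CPM in naive WT libraries, with changes of 2.18 and 3.47. Oas3 rose by 1.52 in CD11c+ and 3.15 in CD11c- cells on the log2 scale, and Trim30a by 1.02 and 2.14.

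Irf7 had 86.8 and 80.9 CPM in naive WT libraries, under all tumor WT libraries, and rose by 2.49 ± 0.56 (SE, adjusted p = 0.0055) in CD11c+ and 3.89 ± 0.60 (SE, adjusted p = 3.7e-04) in CD11c- cells. The CD11c+ call was lost without the naive WT library of the WT:ARG1CKO chimeras (adjusted p = 0.092). Ifitm3 had 212 and 306 CPM and Ifi27l2a 45.8 and 77.2 CPM in naive WT libraries, again under all tumor WT libraries. Ifitm3 rose by 2.38 ± 0.44 (SE, adjusted p = 0.0019) in CD11c+ and 3.72 ± 0.48 (SE, adjusted p = 8.7e-05) in CD11c- cells, and Ifi27l2a by 3.26 ± 0.59 (SE, adjusted p = 0.0015) and 4.39 ± 0.62 (SE, adjusted p = 1.8e-04). Bst2, which did not pass between the sorted populations, had 56.5 and 82.2 CPM in naive WT libraries and rose in both, by 1.73 ± 0.29 (SE, adjusted p = 0.0010) in CD11c+ and 2.09 ± 0.30 (SE, adjusted p = 1.7e-04) in CD11c- cells. Zbp1 had 40.7 and 31.9 CPM in naive WT libraries and rose by 2.97 ± 0.47 (SE, adjusted p = 4.4e-04) in CD11c- cells; the call on its CD11c+ change of 1.68 ± 0.44 (SE, adjusted p = 0.013) was lost without either naive library (adjusted p 0.051 and 0.19).

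Several members that were lower in CD11c+ than in CD11c- cells did not pass between CD11c+ and naive cells. Stat2 had 49.2 and 27.7 CPM in naive WT libraries, inside the CD11c+ range at the lower value, and its log2 fold change was -0.44 ± 0.35 in CD11c+ (SE, adjusted p = 0.40) and 1.12 ± 0.37 (SE, adjusted p = 0.039) in CD11c- cells. The CD11c- call on Stat2 was lost when any 1 of 5 of the 7 libraries was left out (adjusted p 0.062 to 0.35): either naive WT library, WT:IL9RKO CD11c- WT 1, or WT:ARG1CKO CD11c- WT 1 or 2. Oas2 had 28.6 and 13.96 CPM in naive WT libraries, with the first above every CD11c+ value, and changed by -1.36 ± 0.57 in CD11c+ (SE, adjusted p = 0.097) and 0.54 ± 0.57 in CD11c- cells (adjusted p = 0.54). Irf9 (61.1 and 54.3 CPM in naive WT libraries), Ddx58 (37.4 and 21.6 CPM) and Sp100 (78.8 and 70.98 CPM) rose in CD11c- cells by 1.02, 1.54 and 1.47. In CD11c+ cells their changes of 0.57, 0.46 and 0.20 did not pass (adjusted p 0.097, 0.24 and 0.56). Without the naive WT library of the WT:ARG1CKO chimeras the CD11c- calls on Irf9 and Ddx58 were lost too (adjusted p 0.12 and 0.060). Usp18 (31.2 and 48.8 CPM in naive WT libraries) and Mx1 (10.6 and 9.01 CPM) rose in CD11c- cells by 2.19 and 2.14, and their CD11c+ changes of 1.12 and 0.90 did not pass (adjusted p 0.052 and 0.089). Parp9, with the change nearest to 0 in CD11c- cells (0.25), and Mx2, Herc6 and Samd9l passed in neither population.

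**Figure D4:**
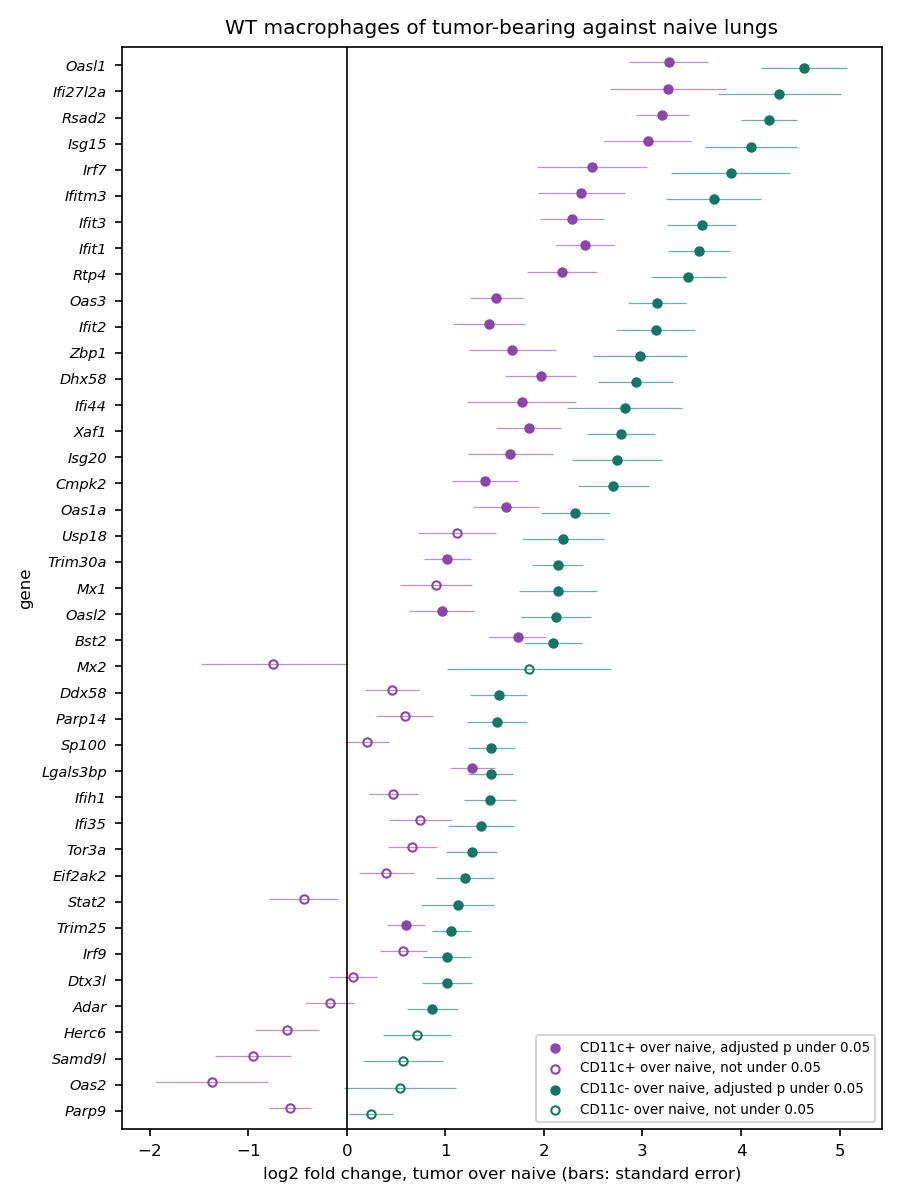
Log2 fold change of tumor over naive WT libraries (horizontal axis) for the 41 genes, in CD11c+ and CD11c- cells; bars are standard errors and filled points have an adjusted p under 0.05. CD11c- changes run from 0.25 (Parp9) to 4.64 (Oasl1), and 7 members have CD11c+ estimates below 0, Oas2 at -1.36 being the lowest.

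In the knockout libraries, with IL9RKO and ARG1CKO labels fitted together and 13356 genes tested, the same 36 members were higher in CD11c- tumor than in naive libraries (11.3% of all genes), with a median log2 fold change of 1.77. The libraries did not overlap for 39 members (18.6% of all genes). Dhx58 had 167, 215, 124, 248, 186 and 157 CPM in the CD11c- knockout libraries, against 37.9 and 24.2 CPM in the naive ones, and the smallest adjusted p, 2.9e-04, at a change of 2.53 ± 0.33 (SE). Oas1a, Ifit3, Ifit1, Tor3a, Xaf1 and Sp100 rose by 2.03, 2.74, 2.66, 0.94, 2.41 and 1.35, and Oasl1 had the largest change, 3.58. The count was 12 without the naive ARG1CKO library. That library stood apart in markers of other cells. Its 11 epithelial, endothelial and fibroblast markers summed to 417 CPM, against 46.3 CPM in the naive library labelled IL9RKO. Alveolar macrophage markers summed to 5641 against 2357 CPM and monocyte markers to 10557 against 6149.9 CPM. Both of these lists hold Chil3, and the monocyte marker Ly6c2 went the other way, at 15.9 against 102 CPM. In CD11c- knockout libraries 11 of 15 alveolar macrophage markers were lower than in the naive ones (sums of 319 to 552 CPM), 4 of 12 monocyte markers were higher and 4 lower (sums of 4469.8 to 6509.8 CPM), and 8 of 13 melanoma markers were higher. The part of these cells in the knockout calls was not tested. In CD11c+ knockout cells 1 member passed, against 3.02% of all genes. It was Ifit1, with 54.9, 48.4, 23.7, 42.6 and 61.4 CPM in CD11c+ knockout libraries, against 24.5 and 10.03 CPM in the naive ones, and a log2 fold change of 1.43 ± 0.38 (SE, adjusted p = 0.043). The median there was 0.54, and DESeq2 called 7. An unadjusted p under 0.05 in the same edgeR fit was found for 13 members, without the share of all genes to set beside it. Leaving out CD11c+ library 3 labelled IL9RKO gave 12 members, leaving out the naive library labelled IL9RKO gave 17, and leaving out the naive ARG1CKO library, library 1 or 2 of either CD11c+ knockout group gave 0. In CD11c+ knockout libraries 1 of 15 alveolar macrophage and 8 of 13 melanoma markers were higher than in the naive ones, and 3 of 12 monocyte markers were lower. The naive library labelled IL9RKO had 285 CPM of Arg1, against 15.8 CPM in its WT partner.

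The lists of genes outside the members were read in the same WT fits. Of the 8 receptor, kinase and regulator genes, Ifnar2 (0.79) was higher and Tyk2 (-0.77) was lower in CD11c- tumor cells. In CD11c+ tumor cells Ifnar2 (0.73) was higher and Socs3 (-0.82) and Tyk2 (-0.92) were lower. Of the 17 genes of the sensing list 5 were higher in CD11c- cells, among them Myd88 (1.27), Ikbke (2.06), Trex1 (1.57) and Ticam1 (1.14). In CD11c+ cells Ticam1 (0.83) and Myd88 (0.64) were higher and Tlr4 (-1.04) was lower. Of 20 interferon-gamma genes 6 were higher and 5 lower in CD11c- cells. Nos2, the inducible nitric oxide synthase, changed by 4.44 and Cxcl10, a chemokine that type I interferon also induces, by 2.004, while Cd74 and Ciita changed by -1.87 and -2.58. In CD11c+ cells 3 were higher and 4 lower, with Cxcl10 at 1.68, Nos2 at 2.93, Ifngr1 at -0.995 and Irf1 at -1.23. Beside these changes, 8 of 15 alveolar macrophage markers and 5 of 9 conventional dendritic cell markers were lower in CD11c- tumor than in naive WT libraries. The alveolar sums were 603 to 7248 CPM in CD11c+, 329 to 544 CPM in the CD11c- and 490.0 to 1092 CPM in naive libraries. B16 melanoma markers were higher for 9 of 13 in CD11c+ and 7 of 13 in CD11c- cells. The melanoma sums without Gpnmb, which macrophages also express, were 276 to 405 CPM, 286 to 379.9 CPM and 236 to 301 CPM in the same order, and Sox10, Slc45a2 and Oca2 had no read in naive WT libraries. Their part in the member changes was not tested.

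Neither knockout label came with a called change of any member. Both genotypes of a pair developed in the same kind of chimera. The question of the study, changes within the cell that depend on IL-9 signalling, concerns the IL9RKO label alone. The Il9r reads ran against that label, so a loss of IL-9 signalling in these libraries was not shown. In libraries labelled IL9RKO 0 of the 41 members passed in CD11c+, in CD11c- or over both, by edgeR and by DESeq2, against 0.0298%, 0.0223% and 0.0521% of all genes by edgeR in either direction. In ARG1CKO libraries 0 of 41 passed in each, against 0.0447%, 0.00744% and 0.0372% of all genes. At an unadjusted p under 0.05 in the edgeR fit there were 4 members in CD11c+, 4 in CD11c- and 4 over both for IL9RKO. For ARG1CKO there were 3, 0 and 0. The share of all genes at that p is not given here, so these counts are not read as many or few. Median log2 fold changes of the members over WT were -0.35 in CD11c+ and -0.21 in CD11c- for IL9RKO, and -0.26 and -0.01 for ARG1CKO. Very few genes passed at all in these comparisons, so a count of 0 does not show that the members were alike. The estimates of markers of other cell types stood as follows beside these medians, and no marker passed the test in any of the 4 comparisons. In CD11c+ libraries labelled IL9RKO the estimates of all 15 alveolar macrophage markers were above 0, with a median log2 fold change of 1.10 and a summed level of 2091 to 11760.0 CPM, against 1079 to 7248 CPM in WT libraries. Of 13 melanoma markers 11 had estimates above 0 there, and the sum without Gpnmb was 317 to 1219.7 CPM, against 276 to 310.1 CPM in WT libraries, where Oca2 had no read. The 14 interstitial macrophage markers summed to 16388 to 34767 CPM, against 32048 to 32609 CPM in WT libraries, and 11 had estimates below 0. In CD11c- libraries labelled IL9RKO 13 of 15 alveolar macrophage and 11 of 13 melanoma markers had estimates above 0, and 11 of 12 monocyte markers had estimates below 0, with monocyte sums of 4742 to 6509.8 CPM, against 5147 to 8497 CPM in WT libraries. In CD11c+ ARG1CKO libraries 13 of 15 alveolar macrophage markers had estimates above 0, and their sum was 1673 to 2330.3 CPM, against 603 to 1204 CPM in WT libraries, without overlap. In CD11c- ARG1CKO libraries all 9 neutrophil markers had estimates above 0, with sums of 185 to 637 CPM, against 201 to 365 CPM in WT libraries. The part of these cells in the member values was not tested.

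The transcription factors showed the spread, and means of WT libraries are given here with their SD over the libraries numbered above. Stat2 had 16.1, 25.4 and 36.6 CPM in the CD11c+ and 58.1, 63.6 and 52.8 CPM in the CD11c- libraries labelled IL9RKO, against means of 22.4 ± 3.24 and 103 ± 54.8 CPM in the matching WT pairs. The CD11c- libraries labelled IL9RKO were all below both WT libraries, of which library 1 was high at 142 CPM, and the log2 fold change was -0.83 ± 0.33 (SE, unadjusted p = 0.022, adjusted p = 0.78 by edgeR). It had 24.3 and 20.4 CPM in the CD11c+ and 59.5, 49.4 and 40.5 CPM in the CD11c- ARG1CKO libraries, against means of 28.9 ± 9.48 and 65.2 ± 13.3 CPM in the matching WT libraries. Irf7 had 235, 235 and 78.7 CPM in the CD11c+ and 1066, 1321 and 655 CPM in the CD11c- libraries labelled IL9RKO, against means of 292 ± 14.3 and 1341 ± 16.7 CPM in the matching WT pairs. The libraries labelled IL9RKO were below both WT libraries in each population, with log2 fold changes of -0.67 ± 0.51 in CD11c+ and -0.41 ± 0.51 in CD11c- cells (SE, adjusted p = 1.0 and 0.94 by edgeR). The ARG1CKO values of Irf7 were 266 and 294 CPM in CD11c+ cells, against 1254, 303 and 331 CPM in WT cells, and 1684, 1108 and 839 CPM in the CD11c- cells, against 1655, 1014 and 882 CPM. The CD11c+ groups did not overlap, with WT library 1 far above the others, and the log2 fold change of -1.17 ± 0.54 (SE) had an adjusted p of 0.78 by edgeR. Irf9 had 72.3, 53.5 and 43.7 CPM in the CD11c+ and 100.4, 90.2 and 92.2 CPM in the CD11c- libraries labelled IL9RKO, against means of 73.2 ± 14.3 and 119 ± 4.07 CPM in the matching WT pairs. It had 69.8 and 72.3 CPM in the CD11c+ and 117, 111 and 104 CPM in the CD11c- ARG1CKO libraries, against means of 92.4 ± 32.1 and 112 ± 6.45 CPM in the matching WT libraries. The CD11c- libraries labelled IL9RKO were below both WT libraries, and over both populations the change in libraries labelled IL9RKO was -0.35 ± 0.16 (SE, adjusted p = 1.00 by edgeR).

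Ddx58, Zbp1, Ifit1 and Ifit3 overlapped between genotypes in both populations and both kinds of chimera. Ddx58 had 25.2, 28.2 and 41.01 CPM in the CD11c+ and 89.8, 54.6 and 64.8 CPM in the CD11c- libraries labelled IL9RKO, against means of 36.4 ± 7.02 and 80.01 ± 35.2 CPM in the matching WT pairs. In ARG1CKO cells it had 51.1 and 49.5 CPM in the CD11c+ and 97.8, 70.2 and 76.6 CPM in the CD11c- libraries, against means of 41.9 ± 7.45 and 86.9 ± 0.743 CPM. Zbp1 had 86.5, 65.4 and 47.4 CPM in the CD11c+ and 269.7, 279 and 211 CPM in the CD11c- libraries labelled IL9RKO, against means of 82.6 ± 12.6 and 275 ± 4.32 CPM in the matching WT pairs. With ARG1CKO it had 82.1 and 107 and 411, 293 and 234 CPM, against means of 148 ± 104 and 302 ± 103 CPM. The CD11c+ WT mean of Zbp1 again held library 1. Ifit1 had 54.9, 48.4 and 23.7 CPM in the CD11c+ and 137, 76.8 and 109 CPM in the CD11c- libraries labelled IL9RKO, against means of 58.01 ± 10.3 and 126 ± 71.8 CPM in the matching WT pairs. Its ARG1CKO values were 42.6 and 61.4 CPM in the CD11c+ and 111, 103 and 111 CPM in the CD11c- libraries, against means of 47.99 ± 6.95 and 109.7 ± 11.7 CPM. Ifit3 averaged 48.2 ± 15.6 CPM in the CD11c+ and 176 ± 10.2 CPM in the CD11c- libraries labelled IL9RKO, against 66.02 ± 17.8 and 221 ± 74.1 CPM in WT (SD, n = 3 and 2). For ARG1CKO it had 67.98 and 65.3 and 178, 161 and 145 CPM, against means of 79.8 ± 25.4 and 162 ± 13.4 CPM. Ifit2 in CD11c- cells had 159.8, 97.4 and 119 CPM with the IL9RKO label, against 332 and 126 CPM in WT libraries, a change of -0.87 ± 0.35 (SE, adjusted p = 0.78 by edgeR) that overlapped.

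Oas2 stood out by its unadjusted p and not after adjustment. CD11c+ libraries labelled IL9RKO had 5.98, 9.31 and 10.6 CPM, against 4.75 and 1.87 CPM in WT libraries, all above both. The log2 fold change was 1.39 ± 0.37 (SE, unadjusted p = 0.0013, adjusted p = 1.0 by edgeR). In CD11c- cells the WT mean was the higher one, with 23.3, 31.8 and 21.3 CPM with the IL9RKO label, against 47.5 and 31.4 CPM in WT libraries, and the groups overlapped. The difference of the 2 changes, CD11c+ minus CD11c-, was 2.02 ± 0.50 (SE, unadjusted p = 6.5e-04, adjusted p = 0.86 by edgeR). The 2 CD11c+ WT libraries behind it were the lowest of the series for Oas2, below the CD11c+ WT libraries of the WT:ARG1CKO chimeras at 15.7, 9.84 and 11.2 CPM. ARG1CKO libraries had 16.2 and 10.9 CPM in the CD11c+ and 23.1, 26.3 and 32.2 CPM in the CD11c- cells. Adar followed Oas2 in CD11c+ cells, with 50.2, 50.7 and 57.3 CPM with the IL9RKO label, against 38.9 and 32.4 CPM in WT libraries. Its CD11c- values ran the other way, 73.01, 68.5 and 86.8 CPM against 130.2 and 77.5 CPM, with overlap. Mx1 had 14.99, 18.1 and 3.88 CPM in the CD11c+ and 38.8, 50.8 and 28.6 CPM in the CD11c- libraries labelled IL9RKO, against means of 17.4 ± 2.99 and 51.7 ± 16.7 CPM in the matching WT pairs. Its ARG1CKO values were 11.5 and 8.06 and 50.7, 32.4 and 22.5 CPM, against means of 17.5 ± 8.36 and 35.4 ± 8.92 CPM.

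The remaining named genes are given in the same way. Isg15 had 75.3, 53.1 and 21.2 CPM in the CD11c+ and 231, 169 and 134 CPM in the CD11c- libraries labelled IL9RKO, against WT means of 72.8 ± 11.3 and 186 ± 11.4 CPM. It had 68.1 and 84.4 CPM in the CD11c+ and 339.8, 237 and 168 CPM in the CD11c- ARG1CKO libraries, against WT means of 129 ± 83.5 and 231 ± 88.7 CPM. Usp18 had 70.3, 35.4 and 22.95 CPM in the CD11c+ and 174, 107 and 124 CPM in the CD11c- libraries labelled IL9RKO, against WT means of 59.2 ± 16.3 and 189.8 ± 110.0 CPM. Library 3 of the CD11c+ group labelled IL9RKO was the lowest for both genes. Usp18 had 74.7 and 78.6 CPM in the CD11c+ and 192, 146 and 157 CPM in the CD11c- ARG1CKO libraries, against WT means of 107 ± 47.1 and 170.4 ± 36.5 CPM. Rsad2 had 97.6, 86.9 and 30.4 CPM in the CD11c+ and 294, 189 and 182 CPM in the CD11c- libraries labelled IL9RKO, against WT means of 122 ± 31.8 and 248 ± 40.3 CPM. All 3 CD11c+ libraries labelled IL9RKO were below both WT libraries, a log2 fold change of -0.76 ± 0.36 (SE, adjusted p = 1.0 by edgeR). Rsad2 had 71.8 and 132 CPM in the CD11c+ and 270.1, 243 and 215 CPM in the CD11c- ARG1CKO libraries, against WT means of 114 ± 24.9 and 246 ± 34.7 CPM. Sp100 had 88.6, 49.9 and 65.1 CPM in the CD11c+ and 188, 145 and 151 CPM in the CD11c- libraries labelled IL9RKO, against WT means of 85.1 ± 21.4 and 218 ± 96.3 CPM. The CD11c- WT mean of Sp100 held library 1 at 286 CPM. Sp100 had 92.6 and 81.6 CPM in the CD11c+ and 194, 173 and 165 CPM in the CD11c- ARG1CKO libraries, against WT means of 82.5 ± 10.2 and 191 ± 17.5 CPM.

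Ifitm3, Bst2 and Ifi27l2a complete the named genes. Ifitm3 had 876, 545 and 172 CPM in the CD11c+ and 3398, 3892 and 2634 CPM in the CD11c- libraries labelled IL9RKO, against WT means of 784 ± 200.3 and 2882 ± 657 CPM. Library 3 held the lowest CD11c+ value. Ifitm3 had 899 and 1121 CPM in the CD11c+ and 5024, 3907 and 3440.2 CPM in the CD11c- ARG1CKO libraries, against WT means of 1967 ± 1277 and 3923 ± 1057 CPM. Bst2 had 208, 137 and 64.1 CPM in the CD11c+ and 310.2, 272 and 254 CPM in the CD11c- libraries labelled IL9RKO, against WT means of 163 ± 22.3 and 236 ± 31.9 CPM. It had 222 and 229 CPM in the CD11c+ and 453, 393 and 290.1 CPM in the CD11c- ARG1CKO libraries, against WT means of 295 ± 131 and 348 ± 74.01 CPM. Ifi27l2a had 311, 219 and 73.1 CPM in the CD11c+ and 1046, 1199 and 814 CPM in the CD11c- libraries labelled IL9RKO, against WT means of 265 ± 32.6 and 889 ± 347 CPM. Its ARG1CKO values were 471 and 414 CPM in CD11c+ cells, against 2144, 552 and 517 CPM in WT cells, and 2218, 2047 and 1244 CPM in the CD11c- cells, against 2411, 1565 and 1418 CPM. The CD11c+ groups did not overlap, and the change of -1.28 ± 0.56 (SE) had an adjusted p of 0.78 by edgeR.

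**Figure D5:**
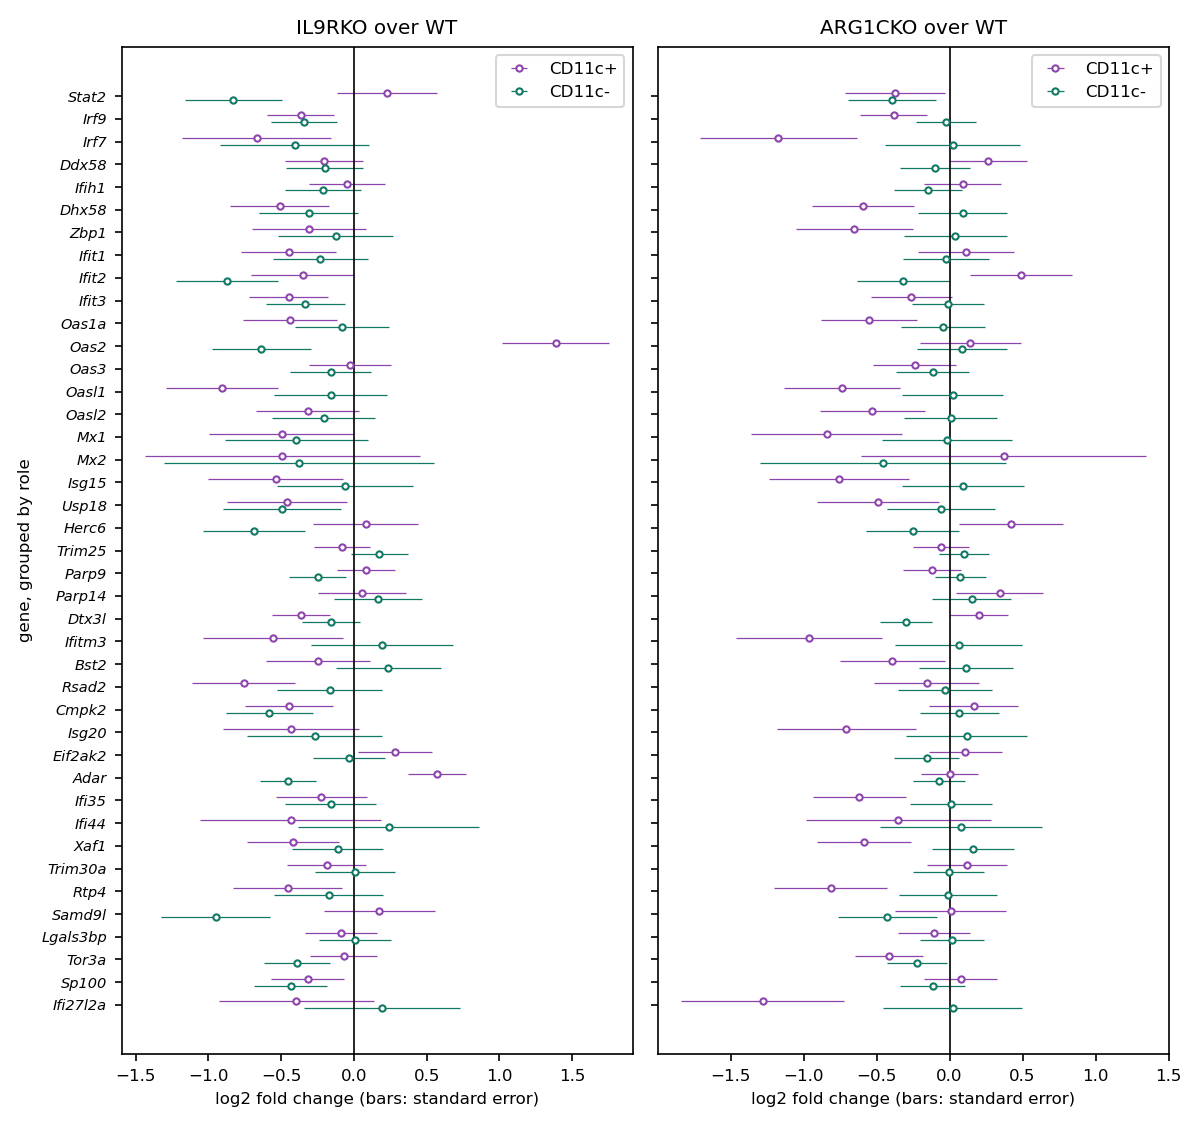
Log2 fold change over WT (horizontal axis) of the 41 genes, grouped by role, for libraries labelled IL9RKO (left) and ARG1CKO (right) in CD11c+ and CD11c- cells; bars are standard errors and no point has an adjusted p under 0.05. Oas2 in CD11c+ cells lies farthest right for IL9RKO (1.39), while its CD11c- value lies left of 0.

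The difference of the genotype changes between CD11c+ and CD11c- cells, which is also the difference of the CD11c+ against CD11c- contrast between genotypes, was called for 0 members in either kind of chimera, against 0% and 0% of all genes. The difference between the IL9RKO and the ARG1CKO changes over both populations was called for 0 members, against 0.0149% of all genes. WT libraries of the WT:IL9RKO and the WT:ARG1CKO chimeras came from different animals. Between them 0 members passed in CD11c+ and 0 in CD11c- by edgeR, against 0% and 0% of all genes. At an unadjusted p under 0.05 in that fit there were 12 and 2 members, again without the share of all genes. Oas2 had the smallest adjusted p of the members in CD11c+ WT cells, with 4.75 and 1.87 CPM in the WT:IL9RKO, against 15.7, 9.84 and 11.2 CPM in the WT:ARG1CKO chimeras. Its log2 fold change was -1.89 ± 0.38 (SE, adjusted p = 0.24 by edgeR), and Oas2 was the 1 member that DESeq2 called.

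Naive libraries offer 1 library for each genotype of each kind of chimera, so they carry no test. The naive library labelled IL9RKO was above its WT partner for 30 members and below it for 11, with a median log2 ratio of 0.49, against 0.06 over all genes. Ifi27l2a had 181 CPM in it, against 45.8 CPM in the WT partner, Isg15 34.9 against 10.000 CPM and Rsad2 48.6 against 16.1 CPM. Samd9l, a restriction factor of poxviruses, ran the other way with 38.4 against 85.5 CPM. Irf7 had 183 against 86.8 CPM, Ifitm3 712 against 212 CPM and Bst2 125 against 56.5 CPM. The naive ARG1CKO library was above its WT partner for 14 members and below it for 27, with a median of -0.26, against -0.04 over all genes. Marker sums differed within both pairs: alveolar macrophage markers summed to 2357 CPM in the naive library labelled IL9RKO, against 490.0 CPM in its WT partner, and to 5641 CPM in the ARG1CKO library, against 1092 CPM in its partner. Epithelial, endothelial and fibroblast markers summed to 46.3 CPM in the library labelled IL9RKO, against 16.7 CPM, and to 417 CPM in the ARG1CKO library, against 20.7 CPM. Monocyte markers, which share Chil3 with the alveolar list, summed to 6149.9 against 5752 CPM and to 10557 against 5426 CPM in the same pairs. The monocyte marker Ly6c2 had 102 against 25.6 CPM and 15.9 against 23.8 CPM. The part of these cells in the member values was not tested. Mx1 had 4.94 CPM in the naive ARG1CKO library, against 9.01 CPM in the WT partner, and Ifih1 26.2 against 18.4 CPM. Irf7 had 53.5 against 80.9 CPM and Isg15 9.85 against 14.7 CPM. The other named genes lay in the naive library labelled IL9RKO, against its WT partner, at 26.96 against 49.2 CPM for Stat2, 57.6 against 61.1 CPM for Irf9, 25.6 against 37.4 CPM for Ddx58, 73.6 against 40.7 CPM for Zbp1. The remaining ones there were 24.5 against 11.4 CPM for Ifit1, 38.3 against 13.2 CPM for Ifit3, 24.3 against 28.6 CPM for Oas2, 43.9 against 31.2 CPM for Usp18, 71.3 against 78.8 CPM for Sp100. Oas2, Stat2, Irf9, Ddx58 and Sp100 were lower in the IL9RKO-labelled naive library and the other 4 were higher. In the naive ARG1CKO library, against its WT partner, the values were 26.3 against 27.7 CPM for Stat2, 53.4 against 54.3 CPM for Irf9, 28.4 against 21.6 CPM for Ddx58, 28.02 against 31.9 CPM for Zbp1. They were 10.03 against 8.92 CPM for Ifit1, 13.1 against 17.9 CPM for Ifit3, 8.68 against 13.96 CPM for Oas2, 38.5 against 48.8 CPM for Usp18, 60.1 against 70.98 CPM for Sp100. Ddx58 and Ifit1 alone among these 9 were above the WT partner.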

How the data were processed

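RNA was extracted with a QIAGEN micro kit and libraries were made with SMART-seq v4 and Nextera XT, per the labels' protocols. The authors deposited raw counts of reads per gene. The submitters' processing notes name FastQC 0.11.5, STAR 2.7.10a, featureCounts, Subread 2.0.3 and mm10, without saying which step each did; the annotation and the strand setting are not given in the sources used here. Genes were matched by symbol, because the deposited Entrez identifiers matched the symbols for 271 of 12853 comparable genes (2.11%). Positions and exon lengths came from a GENCODE annotation of mm10 and promoters from RefSeq.

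Counts were analysed with edgeR 4.0.16 in R 4.3.3 (trimmed mean of M values, filterByExpr, robust quasi-likelihood F test, Benjamini-Hochberg adjustment over all genes tested, threshold 0.05). All 21 tumor libraries shared 1 fit of 8 group means (13434 genes tested and 48 removed by the filter, 13 residual degrees of freedom). Tumor and naive libraries were compared in a fit of 12 WT libraries and a fit of 13 knockout libraries, with kind of chimera as a term. WT contrasts between sorted populations average both kinds of chimera. Each SE was derived from the test, as the size of the log2 fold change divided by the square root of its F statistic. It is therefore no measure of precision apart from the test. The score is the mean log2 CPM over the members with a prior count of 2. DESeq2 1.42.0, other scalings, no filter, smaller fits, replicate blocks and leaving out each library were the alternatives. The test was tried first on simulated counts whose spread was set lower than that of these data. That trial therefore does not show how well the test finds changes here. The figures were drawn with matplotlib 3.10.9.

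Label numbers were checked by the correlation of deviations from group means over 8111 genes. Knockout and WT libraries of the same number went together in both WT:IL9RKO groups (0.25 to 0.46) and in the CD11c- WT:ARG1CKO group (0.21 to 0.38), not in the CD11c+ WT:ARG1CKO group (-0.17 and -0.07). CD11c+ and CD11c- libraries went together for the IL9RKO label (0.19 to 0.40), but not for ARG1CKO (-0.15 and -0.13) or for all numbers of the WT:ARG1CKO WT libraries (0.05 to 0.35).

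The members and lists were chosen with earlier results of these data known, so no p is given for the score or over the list alone. Genes given library by library were 16 set ones, the called members with the 8 smallest adjusted p in a direction and the members with the highest and lowest fold change of a comparison; other members are given by role. All libraries carry the same batch label. Leaving out the pair of libraries that stand apart was chosen after seeing the data. Some genes outside the members are not reported here.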

Additional observations from a re-analysis of the deposited data

How the results depend on the processing

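No called result changed direction. The score difference of ARG1CKO minus WT in CD11c- cells, reported as -0.04, ran from -0.14 to 0.07 without 1 library. Of the counts of members called, 496 stayed within 1.5 times the reported value and 30 did not. Many of the 496 were counts that were 0 as reported and stayed 0, so this tally says little about the counts above 0. All 70 alternative score differences moved by less than the SD between replicates. Of the alternative fold changes of named members, 4638 kept their side of the threshold, 126 lost their call and 64 gained one. With the replicate block, 38 members were lower in CD11c+ than in CD11c- WT libraries, 34 with the IL9RKO label (Bst2 among them, adjusted p = 0.0054) and 25 with ARG1CKO, where the numbers did not pair the libraries; the block changed no count of knockout against WT, all of which stayed 0.

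Leaving out 1 library at a time gave 22 to 37 members lower in CD11c+ than CD11c- WT libraries, 20 to 32 with the IL9RKO label and 0 to 10 with ARG1CKO. Fitting only the contrasted groups gave 17 with the IL9RKO label and 31 with ARG1CKO, and for ARG1CKO DESeq2 gave 24 and leaving out both libraries that stand apart gave 26. Tumor against naive gave 25 to 36 members higher in CD11c- WT, 13 to 25 in CD11c+ WT, 12 to 37 in CD11c- knockout and 0 to 17 in CD11c+ knockout cells without 1 library. In CD11c+ knockout cells DESeq2 gave 7 and leaving out both libraries that stand apart gave 12. Members called lower than naive in CD11c+ cells numbered 0 as reported. They were 1 in WT on library totals, 3 with DESeq2, 0 to 2 without 1 library and 1 without both libraries that stand apart. In knockout cells they were 1 on library totals, 0 to 1 without 1 library and 1 without both. DESeq2 called 1 member, Oas2, lower in WT:IL9RKO than in WT:ARG1CKO CD11c+ WT libraries. For each of these changes the cause was not tested. With 1 to 3 libraries a group and a biological coefficient of variation of 49.2%, the number of libraries limits the precision of single members.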
